A study of Mus musculus with 20 samples.

Results

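Interferon-response and MHC class I antigen-presentation genes were examined in the cortex of aged APOE4 mice on a ketogenic or a control diet. The 37 genes were taken by name, for their known function, from the 23413 genes of the count files, and all 37 had a row there. The files hold RNA-seq read counts from 20 APOE4 knock-in mice, with 1 library per mouse. All mice, controls included, carried the humanized allele tm1.1(APOE*4)Adiuj at the Apoe locus, and there was no group without it. Mouse Apoe was between 1.33 and 3.34 CPM (counts scaled to the total of the library) in every library. The mice were 22 months old, were housed one to a cage and were given equal calories of a control diet (CD, named SD in the labels) or of a ketogenic diet (KD) over 12 months, starting at 10 months of age. There were 5 females and 5 males on the CD, and 4 females and 6 males on the KD. The piece of cortex was bulk tissue, so fewer cells of a type and less RNA per cell cannot be told apart in any value given here.

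Interferons are cytokines released when cells sense viral or misplaced nucleic acid. Type I interferon acts through its receptor on a complex that includes STAT2 and IRF9 and binds an element of the DNA called the ISRE, while interferon gamma is known to act on an element called GAS. The induced genes include sensors of RNA, factors that block viral replication, and the machinery that cuts proteins into peptides, carries them into the endoplasmic reticulum and loads them onto MHC class I molecules for display to CD8 T cells. In brain, microglia, astrocytes and endothelial cells are known to respond in this way, and interferon-responsive microglia are known to accumulate with age.

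The numbers in the library names, given beside the animal numbers, form 2 runs of 10 consecutive libraries, called series 1 and 2 here, and each group had libraries in both. The labels do not say what the runs stand for. Totals were from 21015275 to 29109990 counts in series 1 and from 12207161 to 17697342 counts in series 2. Xist and Ddx3y matched the labelled sex of all 20 mice, although the CD female E228 had 14.0 CPM of the Y-linked Ddx3y. Cortical excitatory neuron markers were present in every library, with a sum over 10 genes from 844 to 1858 CPM. Markers of striatal spiny neurons, which belong to a neighbouring region, summed to between 239 and 3715 CPM over 10 genes. They were high in the KD females E61, E68 and E207, the KD male E59 and the CD female E249.

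To show the elements by which interferon is known to act on these genes, the promoters of 29 of the 37 genes were read from RefSeq (GRCm38.p6), as windows of 250 bases before to 50 bases after the start site. An ISRE was searched as GAAA, any 2 bases and GAAA again, and a GAS as TTC, any 3 bases and GAA, each on both strands. A match of the ISRE on the other strand therefore reads as a pair of TTTC. In the stretches below, written along the strand of the gene and ending before its start site, capitals mark the matches and lower case the flanks of 20 bases. The first ones belong to Ifit1 (chr19:34640765-34640833, plus strand), Ifit3 (chr19:34583353-34583436, plus), Isg15 (chr4:156200855-156200916, minus), Oas1a (chr5:120907526-120907565, minus), Gbp2 (chr3:142620584-142620633, plus) and Gbp3 (chr3:142559979-142560034, plus), which are antiviral genes described below. The last ones are B2m (chr2:122147528-122147577, plus), with an ISRE match in the light chain of MHC class I, and Irf1 (chr11:53769904-53769952, plus) and Psmb8 (chr17:34198078-34198126, plus), with a GAS match.
Ifit1: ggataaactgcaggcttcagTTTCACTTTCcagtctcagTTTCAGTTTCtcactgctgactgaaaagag
Ifit3: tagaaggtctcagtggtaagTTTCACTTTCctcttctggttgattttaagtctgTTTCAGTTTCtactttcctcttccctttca
Isg15: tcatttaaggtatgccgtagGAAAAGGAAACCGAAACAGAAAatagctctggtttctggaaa
Oas1a: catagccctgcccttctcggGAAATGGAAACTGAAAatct
Gbp2: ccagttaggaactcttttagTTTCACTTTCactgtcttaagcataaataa
Gbp3: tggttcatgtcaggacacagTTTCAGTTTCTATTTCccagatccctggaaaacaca
B2m: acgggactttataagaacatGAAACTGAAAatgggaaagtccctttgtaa
Irf1: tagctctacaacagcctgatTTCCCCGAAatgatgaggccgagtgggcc
Psmb8: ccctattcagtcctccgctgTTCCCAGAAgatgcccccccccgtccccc

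In Ifit1 and Ifit3 the window held a pair of separate ISRE matches, in Gbp3 and Oas1a a pair that overlap, and in Isg15 a run of 3 that overlap. A gene was counted if any of its windows held a match. The ISRE letters were found in 13 of the 29 members with a window (44.8%) and in 3.99% of the 27025 genes with a window. They were in 11 of 20 antiviral genes (55%), and in 2 of 9 antigen-presentation genes (22.2%), which were B2m and H2-T23. The GAS letters were in 6 of the 29 members (20.7%) and in 9.55% of all genes, and in Bst2 the GAS match overlapped an ISRE match. The ISRE matches of Ifih1 and Ddx58 and the GAS match of Ifi35 lay after the start site. Dhx58, Zbp1, Usp18, Oas2, Mx2, Rtp4, Parp14 and Tap2 had no window in the table. A match is a string of letters only, and no binding was measured.

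Divided by the length of the exons (GENCODE, GRCm38), B2m, the light chain shared by all class I molecules, had the highest level, at 134 CPM per kb ± 25.5 (SD, n = 20). Ifit3 followed at 8.80 ± 3.35 and Ifit2 at 8.71 ± 1.75 CPM per kb, 2 proteins that recognise or restrain viral RNA. The immunoproteasome subunit Psmb10 was at 7.72 ± 2.29 CPM per kb, and the class I heavy chains H2-K1, H2-D1 and H2-T23 were at 7.22 ± 2.21, 5.97 ± 1.51 and 5.12 ± 1.78 CPM per kb. From Ifit3 to H2-T23, neighbours in this order differed by less than their SD. The lowest level was that of Zbp1, a sensor of Z-form nucleic acid, at 0.0642 CPM per kb and between 0 and 14 counts per library. Zbp1 was the 1 member that did not pass the filter on low counts, so 36 of 37 were tested. Reads of near-identical relatives (the class I heavy chains, the Oas1, Gbp and Ifit genes) may be split between them, and Psmb9 and Tap1 overlap on opposite strands of chromosome 17. Which strand was counted is not given in the sources used here, so reads shared by such pairs cannot be assigned.

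The 8 genes on chromosome 17 are Psmb8, Psmb9, Tap1, Tap2, Tapbp, H2-K1, H2-D1 and H2-T23, all of the mouse MHC. Ifit1, Ifit2 and Ifit3 lie together on chromosome 19, at 34550694-34576419 for Ifit2, 34583531-34588731 for Ifit3 and 34640871-34650009 for Ifit1. Gbp2 (142620602-142638008) and Gbp3 (142560026-142573209) are neighbours on chromosome 3.

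Diet was the first comparison. The question was whether cortex of KD mice differed from that of CD mice in these genes, within each sex. Counts were tested with edgeR's quasi-likelihood test on 15660 genes, with upper-quartile scaling and the library series as a term, and a gene was called differentially expressed at a Benjamini-Hochberg FDR of 0.1 with a 1.5-fold change. In females 0 of the 36 tested members were called, where 0.0447% of all tested genes were, and 0 had an unadjusted p under 0.05, where 11.4% of all genes did. In males 0 were called, as of all genes (0%), and 1 member, Usp18, had an unadjusted p under 0.05, where 3.56% of all genes did. No member separated the diets without overlap of its libraries in either sex (2.1% of all genes did in females, 0.217% in males). DESeq2's Wald test also called 0 members in both sexes, beside 1.51% of all genes in females and 0% in males.

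In females 30 of 36 members had a higher estimate on the KD and 6 a lower one, with a median log2 fold change of 0.25 beside 0.013 over all genes. In females, estimates were also higher on the KD for 15 of 15 microglia markers (median 0.34), 9 of 10 endothelial (0.12), 7 of 9 astrocyte (0.17) and 10 of 10 striatal markers (2.10), and 0 of them were called by edgeR's test. An unadjusted p under 0.05 was reached by 6, 0, 1 and 8 of them. Also in females, 9 of 10 cortical excitatory markers were lower and 7 of 7 oligodendrocyte markers higher. In males 12 members were higher and 24 lower, with a median of -0.07 beside -0.003 over all genes. Higher on the KD in males were 14 of 15 microglia, 4 of 10 endothelial, 8 of 9 astrocyte and 10 of 10 striatal markers. So were 2 of 10 cortical excitatory and 0 of 7 oligodendrocyte markers. The part of any of these markers in the levels of the members was not tested. The median of the members in females was 0.09 without the KD female E68, 0.48 in series 1 alone and -0.14 in series 2 alone. In males it was -0.26 without the KD male E213, and 0.02 without the CD male E66, and it was -0.31 in series 1 and 0.15 in series 2. The direction of the median therefore differed between the 2 series in both sexes. In series 1 the KD females E61 and E68 had striatal marker sums of 2730 and 2477 CPM. The CD females E62 and E67 had 287 and 325 CPM. Diet and striatal content therefore cannot be told apart in values of females from series 1 alone, the interaction included. The members were measured in the same libraries, so the number of members on one side is no count of independent results.

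**Figure D1:**
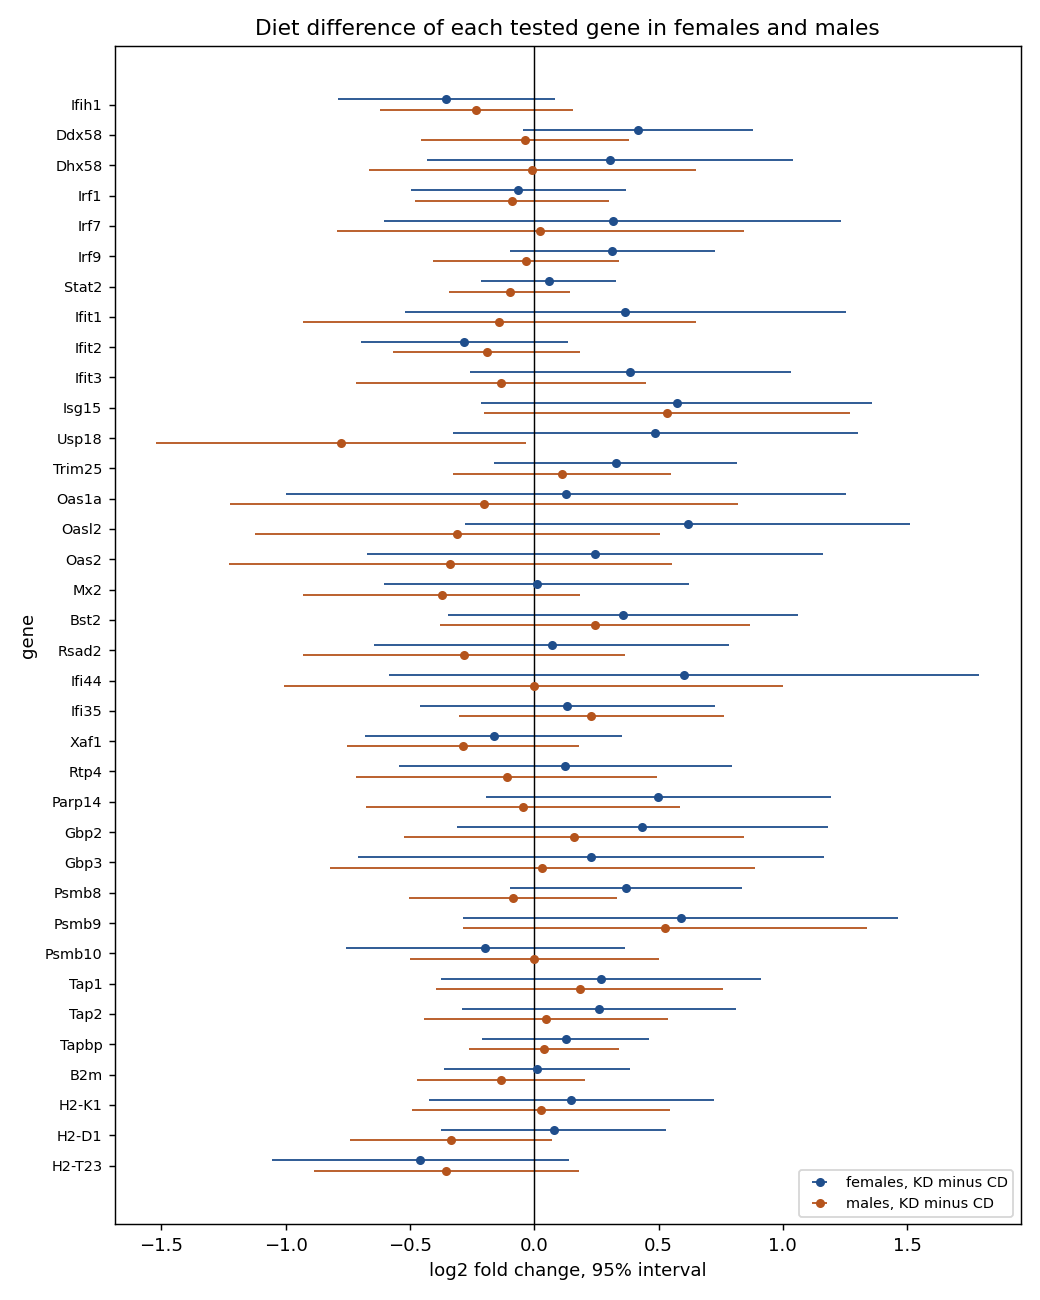
Log2 fold change (KD minus CD) of the 36 tested genes in females (blue) and males (orange), with 95% intervals from the edgeR fit; each row is a gene. The intervals cross 0 for all 36 genes in females, and in males for all except Usp18, whose interval is from -1.52 to -0.03.

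Values of single mice are given in the order E62, E67, E228, E249 and E265 for the CD females, E61, E68, E207 and E227 for the KD females, and E51, E58, E66, E251 and E264 for the CD males. The RNA sensors bind viral or self RNA in the cytosol and start interferon production. Ddx58, which encodes RIG-I, was at 7.99, 7.74, 7.18, 12.9 and 7.86 CPM in the CD females and at 12.5, 15.2, 12.3 and 8.55 CPM in the KD females. The CD female E249 lay among the KD females, and the other CD females lay below all of them. The log2 fold change was 0.42 ± 0.22 (SE, adjusted p = 0.50 by edgeR's quasi-likelihood test), and without E249 it was 0.60 and was called, at an adjusted p of 0.098, as were 6.66% of all genes. E249 had the highest striatal marker sum of the CD females, 1137 CPM. The other CD females had 239 to 325 CPM and the KD females 340 to 3144 CPM. Diet and striatal content therefore cannot be told apart in the fit without E249. In males Ddx58 differed by -0.04 ± 0.20. Ifih1, which encodes the sensor MDA5, was at 12.2, 20.7, 12.1 and 17.2 CPM in the KD females and from 16.7 to 25.2 CPM in the CD females. Over both sexes, where 0 members and 0.268% of all genes were called, its log2 fold change was -0.29 ± 0.14 (adjusted p = 0.36). It was 1 of 3 members with an unadjusted p under 0.05 over both sexes, with Isg15 and H2-T23, where 13.9% of all genes had one. Dhx58, which modulates the other sensors, gave 0.31 ± 0.35 in females and -0.01 ± 0.31 in males.

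Of the factors that carry the signal to DNA, none was called by diet with edgeR's test in either sex. Stat2 was between 11.8 and 22.5 CPM over all libraries, and on the KD its log2 change was 0.06 ± 0.13 in females and -0.10 ± 0.12 in males. Irf9, its partner, gave 0.31 ± 0.20 and -0.03 ± 0.18. Irf1, a factor induced mostly by interferon gamma, gave -0.06 ± 0.21 and -0.09 ± 0.19. Irf7, the factor that amplifies interferon production, varied more, from 0.477 CPM in the CD female E265 to 3.46 CPM in the KD male E213. Stat2 and Tap2 were lower in series 2 than in series 1, by a log2 difference of -0.28 (adjusted p = 0.025) and -0.55 (adjusted p = 0.032), the 2 members at an FDR of 0.1 in that contrast beside 33.2% of all genes. The library series was a term of the fit.

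Isg15, a ubiquitin-like protein attached to other proteins in infected cells, was at 0.809, 0.648, 0.848, 1.23 and 0.874 CPM in the CD females and at 1.67, 1.59, 0.883 and 1.14 CPM in the KD females. The CD males had 0.564, 0.618, 0.685, 0.565 and 0.517 CPM, while the KD males had a lowest value of 0.422, a median of 0.740 and a highest value of 2.17 CPM. The groups overlapped in both sexes, and E213 alone was the KD male above 0.823 CPM. Over both sexes the log2 fold change on the KD was 0.55 ± 0.25 (adjusted p = 0.34), and without E213 it was 0.30. Usp18 removes ISG15 from proteins and holds back the type I interferon receptor. In the CD males it was at 1.73, 2.61, 6.05, 1.76 and 2.59 CPM, and in the KD males it had a lowest value of 1.39, a median of 1.55 and a highest value of 2.37 CPM. The CD male E66 stood above all other males, and the groups overlapped. The log2 fold change in males was -0.78 ± 0.36 (adjusted p = 1.0), and -0.35 without E66. An exact two-sided permutation test over the 462 splits of the males, without the series term, gave p = 0.054, where the smallest possible p is 0.0022. It was run for Usp18 because of its unadjusted p in the same mice, and is no independent evidence. In the females Usp18 was at 1.62, 2.92, 2.32, 3.77 and 1.91 CPM on the CD and at 3.77, 6.33, 3.02 and 1.91 CPM on the KD, and the groups overlapped. The diet difference in females minus that in males was 1.26 ± 0.54 for Usp18 (adjusted p = 1.0), and it was 2.37 in series 1 alone and -0.01 in series 2 alone. It was the 1 member with an unadjusted p under 0.05 in this interaction, where 2.14% of all genes had one, and 0 members were called (0% of all genes).

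The IFIT proteins bind viral RNA and block its translation. Ifit1 was at 5.23, 7.46, 4.97, 17.6 and 8.66 CPM in the CD females and at 12.1, 20.3, 9.12 and 6.16 CPM in the KD females. The highest CD value, in E249, lay above all but the highest KD value, in E68. The log2 fold change was 0.37 ± 0.42 in females, and 0.0008 without E68. In males it was -0.14 ± 0.38, with E66 at 13.5 CPM on the CD and E213 at 11.5 CPM on the KD. Ifit3 gave 0.39 ± 0.31 in females and -0.13 ± 0.28 in males, and Ifit2 -0.28 ± 0.20 and -0.19 ± 0.18.

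The OAS proteins make an oligoadenylate messenger that starts RNA degradation, and other effectors act at the membrane or on viral replication. Oasl2 had the largest female log2 estimate of the 36 members, 0.62 ± 0.43, with 7.45, 11.2, 4.56 and 3.23 CPM in the KD females and 2.76, 4.17, 3.11, 7.29 and 2.30 CPM in the CD females. Parp14, an ADP-ribosyltransferase, was at 13.2, 19.5, 12.6 and 8.25 CPM in the KD females and at 6.76, 9.08, 6.27, 16.8 and 8.26 CPM in the CD females. Its log2 fold change was 0.50 ± 0.33, with 1.01 in series 1, where it was called (adjusted p = 0.085, 2 mice against 2, with 5.42% of all genes called), and -0.07 in series 2. Diet and striatal content cannot be told apart in the females of series 1, as given above. Ifi44 gave 0.60 ± 0.57 in females and -0.003 ± 0.48 in males, while Bst2, or tetherin, which holds budding virus at the cell surface, gave 0.36 ± 0.34 and 0.24 ± 0.30. Rsad2, or viperin, gave 0.07 ± 0.34 and -0.28 ± 0.31, and Mx2, a dynamin-like restriction factor, 0.01 ± 0.29 and -0.37 ± 0.27. The guanylate-binding proteins Gbp2 and Gbp3, GTPases that attack vacuoles of pathogens, gave 0.43 ± 0.36 and 0.23 ± 0.45 in females. Of the remaining effectors, Trim25, a ubiquitin ligase that acts on RIG-I signalling, gave 0.33 ± 0.23 in females and 0.11 ± 0.21 in males, and Xaf1 -0.16 ± 0.25 and -0.29 ± 0.22. Rtp4 gave 0.12 ± 0.32 and -0.11 ± 0.29, Ifi35 0.13 ± 0.28 and 0.23 ± 0.26, and Oas1a, at most at 0.983 CPM, 0.13 ± 0.54 and -0.20 ± 0.49.

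Antigen processing starts with the proteasome. The immunoproteasome subunit Psmb9 was at 1.28, 0.770, 1.30, 0.492 and 0.794 CPM in the CD females and at 2.02, 1.85, 0.883 and 1.20 CPM in the KD females. On the KD it was higher by 0.59 ± 0.42 in females and by 0.53 ± 0.39 in males on the log2 scale, the latter 0.09 without E213. Its partner Psmb8 gave 0.37 ± 0.22 and -0.09 ± 0.20, and Psmb10 -0.20 ± 0.27 and -0.0003 ± 0.24. The peptide transporter subunits Tap1 and Tap2 gave 0.27 ± 0.31 and 0.26 ± 0.26 in females, and tapasin, the chaperone encoded by Tapbp, 0.13 ± 0.16. The 95% interval of Tapbp in females ran from -0.21 to 0.46, and in males from -0.26 to 0.34.

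Of the class I molecules, B2m was at 104, 117, 117, 131 and 137 CPM in the CD females and at 138, 169, 101 and 106 CPM in the KD females. The KD females thus held both the lowest and the highest values of their sex. The log2 fold change was 0.01 ± 0.18, with a 95% interval from -0.36 to 0.39, and it was 0.44 in series 1 and -0.39 in series 2. H2-K1, a classical heavy chain, was at 19.7, 23.5, 19.2, 24.7 and 16.6 CPM on the CD and at 31.4, 29, 20.1 and 18.5 CPM on the KD in females, a log2 fold change of 0.15 ± 0.27. H2-D1, the other classical heavy chain, gave 0.08 ± 0.22 in females and -0.33 ± 0.19 in males, and in males -0.55 without E213. H2-T23, which encodes the non-classical Qa-1 molecule that is read by NK receptors, had a lower estimate on the KD in both sexes. It was at 21.1, 14.2, 18.0, 7.62 and 11.8 CPM in the CD females and at 13, 9.56, 7.73 and 14.2 CPM in the KD females, which overlapped. Over both sexes its log2 fold change was -0.41 ± 0.19 (adjusted p = 0.35).

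**Figure D2:**
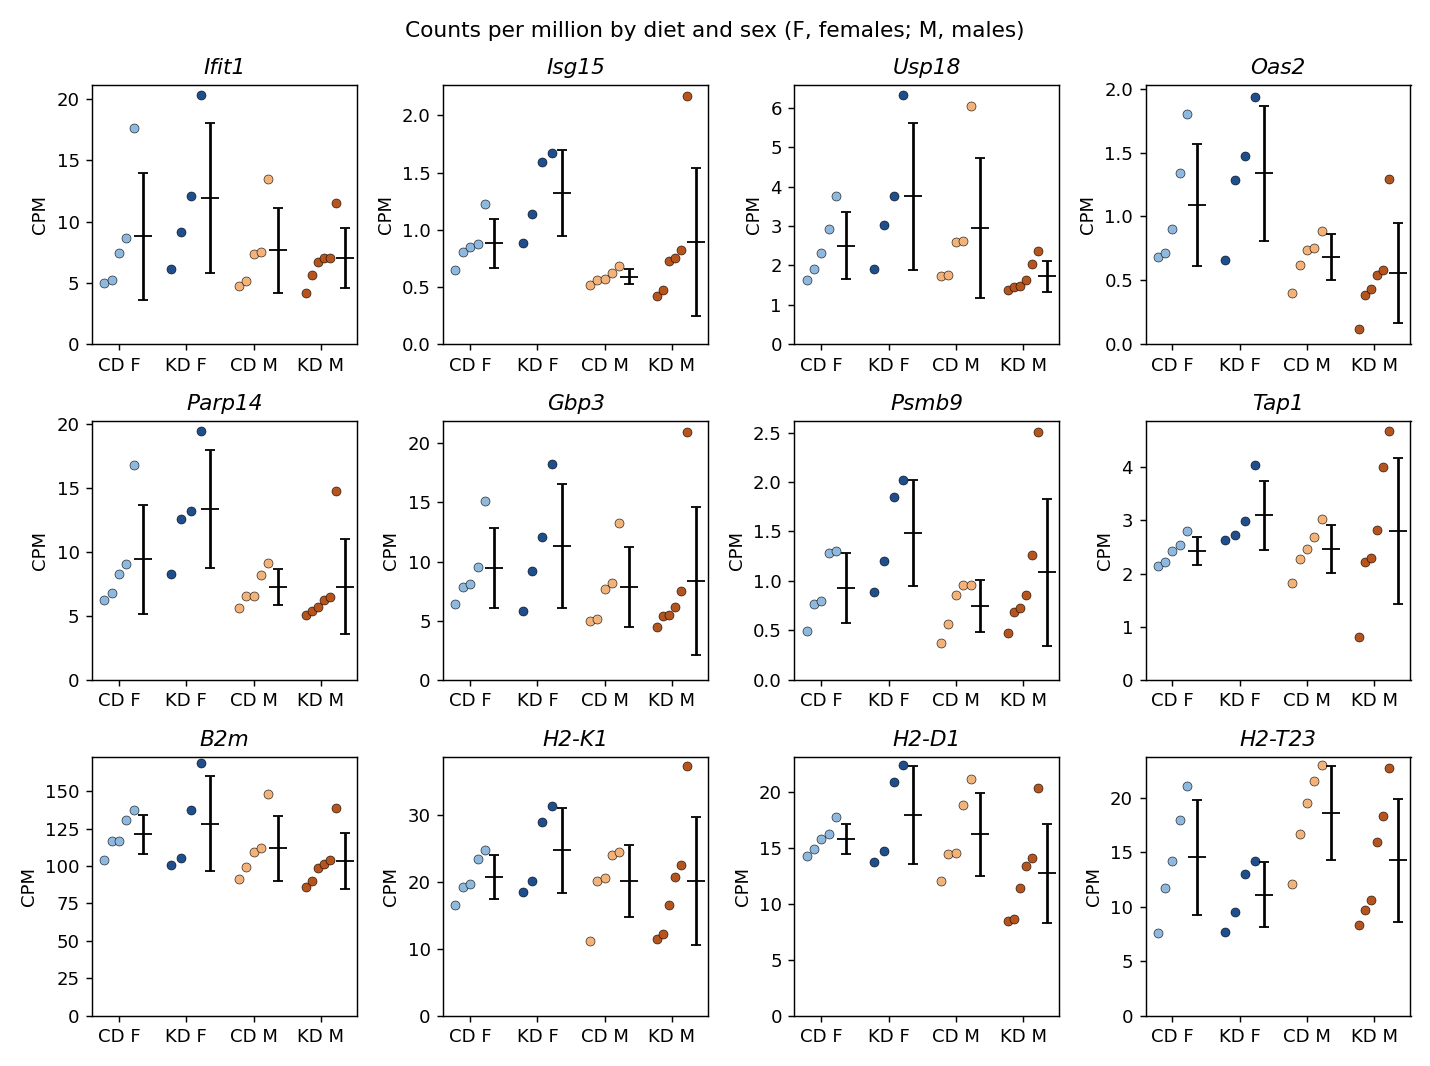
CPM of 12 genes in CD and KD females (light and dark blue) and CD and KD males (light and dark orange), 1 point per mouse, with the mean and SD as a bar beside the points; the vertical axes start at 0. In each gene the diet groups of a sex overlap, and 1 or 2 mice of a group often lie far above the rest, as for Usp18 in CD males (6.05 CPM) and Gbp3 in KD males (21 CPM).

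Sex was compared over both diets. The test called 0 members, where 0.134% of all genes were called. An unadjusted p under 0.05 was reached by 5 of 36 members, where 13.6% of all genes had one in either direction. All 5 members were higher in females, and 8.59% of all genes had such a p and were higher in females. Oas2 was at 0.904, 1.34, 0.678, 1.80 and 0.715 CPM in the CD females and at 1.28, 1.94, 1.47 and 0.658 CPM in the KD females. The CD males had 0.737, 0.618, 0.887, 0.753 and 0.402 CPM, and the KD males a lowest value of 0.120, a median of 0.485 and a highest value of 1.29 CPM. Females and males overlapped, with E213 the one male above 0.887 CPM. The log2 difference, females minus males, was 0.98 ± 0.30 (adjusted p = 0.20), and 1.17 in series 1 and 0.78 in series 2. DESeq2's Wald test called Oas2 at an adjusted p of 0.088, and 1.44% of all genes. Parp14 gave 0.62 ± 0.22 (adjusted p = 0.25), Oasl2 0.60 ± 0.28, Isg15 0.56 ± 0.25 and Ddx58 0.37 ± 0.15. In all, 30 of 36 members had the higher estimate in females, with a median of 0.22 beside 0.003 over all genes. Higher in females by estimate were also 15 of 15 microglia markers (median 0.20), 10 of 10 endothelial (0.22), 7 of 9 astrocyte (0.09) and 10 of 10 striatal markers (1.09), of which 0 were called and 6, 5, 2 and 3 had an unadjusted p under 0.05. Of the cortical excitatory markers 9 of 10 were lower in females, and 6 of 7 oligodendrocyte markers were higher. The part of any of these markers in the sex difference was not tested.

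The sex comparison depended on single mice. Without the KD male E213, 16 of the 36 members had an unadjusted p under 0.05 (12.4% of all genes did), and 0 were called. Without the CD male E66 it was 12 of 36 (14.1% of all genes), and 0 were called. Without the KD female E227, 10 of 37 did (23.9% of all genes), and Oas2 and Parp14 were called, at adjusted p of 0.041 and 0.057, with 5.1% of all genes. When the KD female E68 was left out, 1 of 36 had such a p (8.3% of all genes), and 0 were called. E213, E66 and E68 were among the mice with the highest levels of these genes, as described below.

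The levels of the genes differed widely from mouse to mouse within the groups. To describe this, the level of each gene in a library was taken as its log2 CPM minus the median of that gene over the 20 libraries, and a library was described by the median of this difference over the 36 genes. The KD female E68 had the highest median difference, 0.69, with 33 of 36 genes above their own median. The KD female E61 had 0.58 (32 of 36 above), and the KD male E213 had 0.50, with all 36 above. The CD male E66 followed at 0.35 and the CD female E249 at 0.28. At the other end were the KD male E256 at -0.50 (2 of 36 above), the CD male E251 at -0.41 (4 of 36) and the KD male E254 at -0.35 (3 of 36). The 5 highest mice thus came from both diets and both sexes, the 3 lowest were males of both diets, and over all genes tested the library medians lay between -0.12 and 0.08. Centred within each library series instead, E213 had 0.66, E68 0.62 and E61 0.49, and E256 -0.40.

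**Figure D3:**
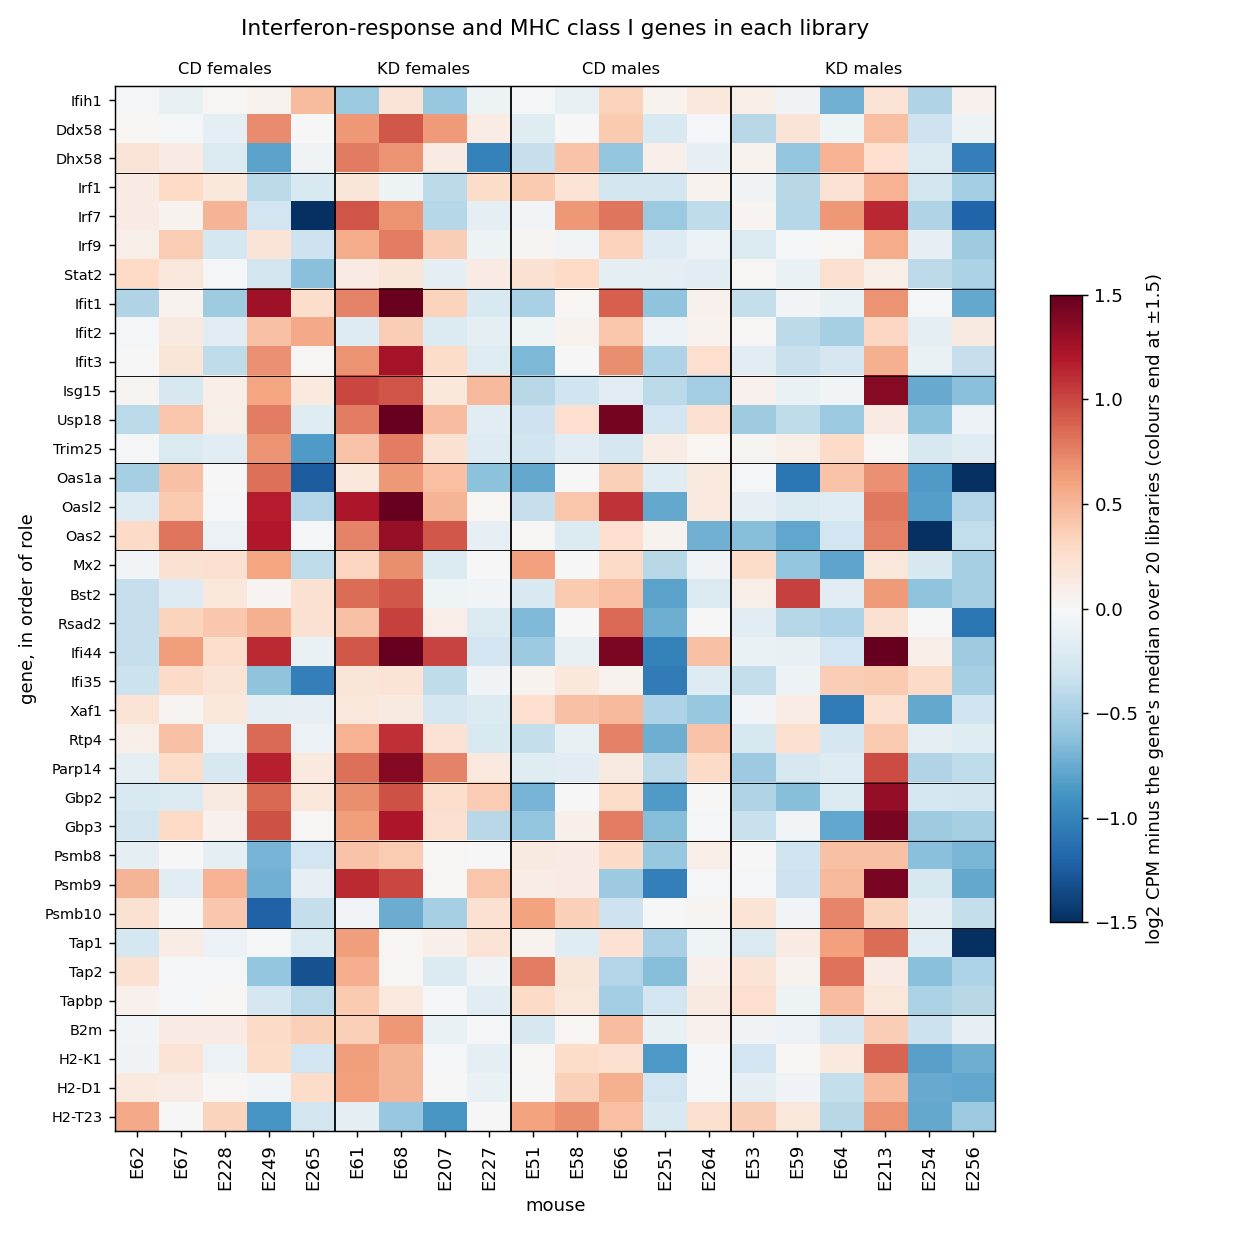
Log2 CPM of the 36 tested genes (rows, grouped by role) in the 20 mice (columns, grouped by diet and sex), minus the median of the gene over all libraries; red is above and blue below, and colours end at 1.5 in either direction. Columns E61 and E68 of the KD females and E213 of the KD males are red in most rows, and E251, E254 and E256 of the males are blue in most rows.

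E68 was the highest of the 20 libraries in 13 of 36 members (36.1%) and in 7.01% of all genes tested. E213 was the highest in 11 (30.6%) and in 4.15% of all genes, or in 8 members with TMM scaling. Both mice were named for their levels of these same genes, so the counts restate that order and are no separate support. E68 led in Ifit1 (20.3 CPM), Ifit3 (32.7 CPM), Usp18 (6.33 CPM), Oasl2 (11.2 CPM), Parp14 (19.5 CPM) and B2m (169 CPM). E213 led in Gbp2 (18.3 CPM), Gbp3 (21 CPM), Isg15 (2.17 CPM), Irf7 (3.46 CPM), Psmb9 (2.51 CPM), Tap1 (4.68 CPM) and H2-K1 (37.4 CPM). The next KD male after E213 was E59 in Gbp3, at 7.54 CPM, and E64 in Gbp2, at 6.27 CPM. In Usp18, by contrast, E213 had 2.37 CPM, below 5 CD or KD females and 3 CD males. The ratio of the highest to the lowest library was 1.96 for B2m, 3.35 for H2-K1, 4.66 for Gbp3 and 4.85 for Ifit1.

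The antiviral genes and the antigen-processing genes did not rank the mice alike. Over the 26 antiviral genes (sensors, factors, IFIT, ISG15, OAS, other effectors and GBPs), E68 had a median of 0.93, E61 0.64, E249 0.63 and E213 0.53. Over the 6 genes of the immunoproteasome and of peptide loading, the KD male E64 was highest at 0.55, then E61 at 0.49 and E213 at 0.39, while E68 had 0.09. E249, among the 3 highest in antiviral genes, was the lowest in antigen processing, at -0.64, and E66 had 0.38 and -0.38. Over all genes tested, E64 was the highest library in 19.9% and the lowest in 11.9%, and E249 in 16.7% and 17.4%. The part of such library-wide extremes in the 2 orders was not tested. The constitutive subunits Psmb5, Psmb6 and Psmb7, which the immunoproteasome subunits replace, had a median of 0.60 in E64, -0.56 in E249 and -0.01 in E213. Their levels thus moved with those of antigen processing in E64 and E249, and their part in that order was not tested. The diet difference of the 3 constitutive subunits was between -0.05 and 0.18 in log2 in either sex, and 0 of 3 were called.

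**Figure D4:**
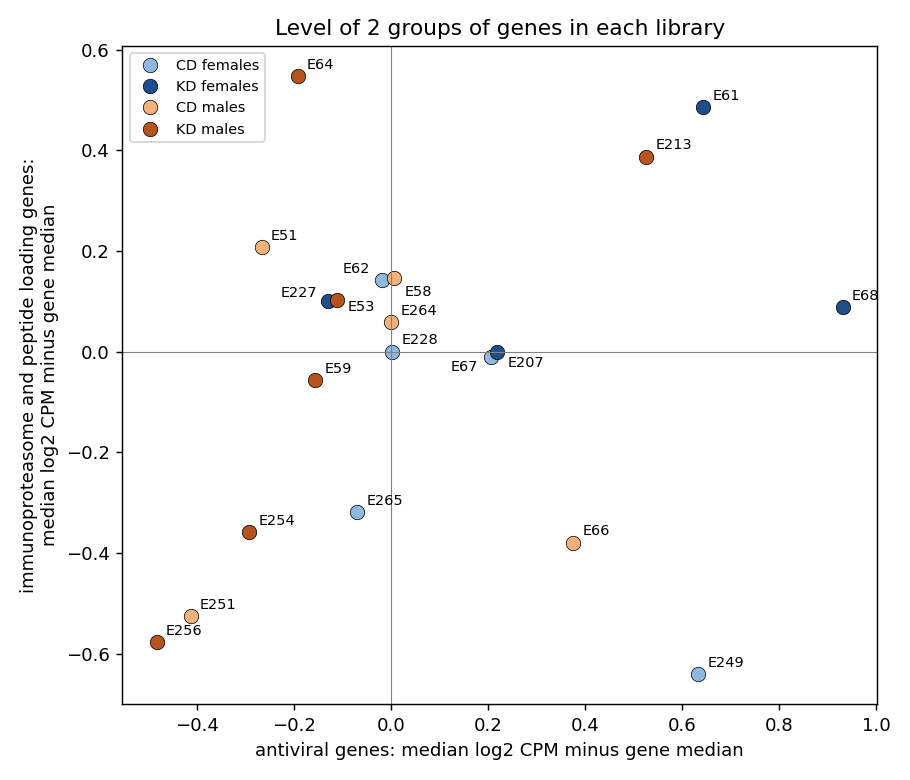
Each point is a mouse; the horizontal axis is its median log2 CPM over 26 antiviral genes and the vertical axis that over 6 immunoproteasome and peptide loading genes, both minus the median of each gene over the 20 libraries. E61 and E213 are high on both axes, E256 and E251 low on both, and E249 and E66 are high on the first and low on the second.

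Markers of other cells moved with some of these mice. The 15 microglia markers summed to between 496 and 710 CPM in the KD females, 362 and 528 CPM in the CD females, 386 and 527 CPM in the CD males and 387 and 568 CPM in the KD males. Their median difference was highest in E61 (0.61) and E68 (0.32), and it was -0.09 in E213 and -0.06 in E66. In E213 the median difference was -0.35 for striatal and 0.11 for cortical excitatory markers, and all 36 members were above their own medians. The MHC class II genes, described below, summed to 25.6 CPM in E213, rank 5 of the 20 libraries. E61, E68, E207 and E249 had low cortical excitatory markers, between -1.26 and -0.82, and high striatal markers, between 2.24 and 3.63. E207 and the KD male E59, with striatal markers as high, had member medians of 0.05 and -0.09. The 13 markers of T and NK cells summed to between 2.57 and 13.9 CPM in the KD females and between 1.93 and 27 CPM in the KD males, beside 2.09 to 5.82 CPM in the CD females and 1.95 to 4.88 CPM in the CD males. Only Cd4 and Lck of these 13 passed the filter on low counts. Cd4 alone was at 25.7 CPM in E59, 10.8 CPM in E61, 9.42 CPM in E207 and 6.89 CPM in E68, mice with high striatal markers. Cd3e, which encodes a CD3 subunit of the T-cell receptor complex, was at 0 in 11 of 20 libraries, with at most 4 counts. The part of these markers in the levels of the members was not tested.

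The rest of the pathway was taken from lists of genes. Ifnb1, the gene of interferon beta, was at 0 in 17 of 20 libraries with at most 1 count, and Ifna1, Ifna2, Ifna4 and Ifna5 had at most 3 counts. Ifng, the gene of interferon gamma, was at 0 in 16 of 20 libraries with at most 2 counts. The receptors were present in every library. Ifnar1 was between 55.3 and 67.7 CPM, Ifnar2 between 12.0 and 19.6 CPM, Ifngr1 between 16.6 and 27.6 CPM and Ifngr2 between 25.2 and 53 CPM. Of 26 tested ligand, receptor and signalling genes, 0 were called in the diet comparison of either sex. Those with an unadjusted p under 0.05 in females, where 11.4% of all genes had one, were 2 higher, Irf5 (0.46 ± 0.17) and Irf8 (0.37 ± 0.14), which are myeloid factors, and 3 lower, among them the kinase Tbk1 (-0.20 ± 0.07, adjusted p = 0.27).

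Of 50 tested further interferon-stimulated genes, 0 were called by diet in either sex, and 41 had a higher estimate in KD females (median log2 fold change 0.28) and 18 in KD males (median -0.04). Cxcl10, a chemokine that draws T cells, was at most at 1.05 CPM and gave 1.32 in females (adjusted p = 0.37). Herc6, the enzyme that attaches ISG15 in mice, gave -1.13 ± 0.31 in females (adjusted p = 0.20) and was between 15.8 and 70.7 CPM. Of 16 further class I and antigen-processing genes 0 were called in either sex, and the activator subunits Psme1 and Psme2 were both 0.32 higher in log2 in KD females (adjusted p = 0.42 and 0.35). Between the sexes, 1 of the 26 signalling genes was called, where 0.134% of all genes were. Tlr7, an X-linked endosomal RNA sensor, was higher in females by 0.79 ± 0.13 in log2 (adjusted p = 0.010) and was between 3.08 and 9.91 CPM over all libraries.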

How the data were processed

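Read pairs of 50 bp from stranded total RNA libraries were aligned by the authors with STAR (genome mm10), and their deposited files hold raw counts per gene. Versions, annotation and the counted strand are not given in the sources used here. Groups follow the labels, and the numbers in the library names give the series, which the labels do not call a batch. From the counts, CPM and log2 CPM (prior count 2) were computed. In R 4.3.3, edgeR 4.0.16 was run on the 15660 genes that passed filterByExpr, as described with the results. The fit gives all groups one estimate of the spread, and its p-values were adjusted by Benjamini-Hochberg over all tested genes. The study states RUVg with no number of factors, so that step was an alternative (1 or 2 factors, all but the 5000 genes of smallest p as controls). Other alternatives were TMM, DESeq2 1.42.0 size factors and Wald test, the likelihood ratio test, no filter, 10 counts in every library, no series term, each sex or series alone, and leaving out mice. TMM scaling of the ranks and centring within series were added after the data were seen. To check for a library deposited more than once, the 41 pairs within groups were compared, and none agreed within sampling noise (chi-square per degree of freedom of at least 7.25). The smallest library held 12207161 counts, which limits low genes.

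The members and the lists were chosen with earlier results of these data known, so their directions are no independent support. Named are all members, list genes past the thresholds or with the smallest unadjusted p, the receptors, and sex and Apoe checks. Ifna1, Ifna2, Ifna4, Ifna5, Psmb5, Psmb7, Cd3e, Cd4 and Lck were named after their values were seen. Coordinates and exon lengths came from GENCODE vM21, and promoters from RefSeq.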

Additional observations from a re-analysis of the deposited data

Results flagged for a closer look

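Within groups of 4 to 6 mice, the log2 CPM gap between the most extreme mouse and its neighbour was divided by the group's range. This ratio passed Dixon's 95% limit in 10 of 144 combinations of gene and group, where 7.2 are expected by chance. The KD male E213 was set apart as high in 5 of them, with ratios of 0.720 for Ifit3, 0.725 for Ifi44, 0.773 for Parp14, 0.783 for Gbp2 and 0.667 for Gbp3. The CD male E251 was set apart as low in Psmb8 (0.772) and H2-K1 (0.746). The KD female E68 (0.883) and the CD male E66 (0.729) were set apart as high in Ifit2, and the CD female E249 in Ddx58 (0.817). No technical or biological reason for these values was tested.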

How the results depend on the processing

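The number of members called was 0 in each of the 5 comparisons (edgeR's quasi-likelihood test). It stayed 0 in males and in the interaction under every alternative that could be fitted, beside 0% and at most 3.56% of all genes. In females it was 1 (Parp14) in series 1 alone, where 5.42% of all genes were called, and 5 (Ddx58, Trim25, Oasl2, Parp14 and H2-T23, the last lower on the KD) without CD female E249 and KD female E227, where 12.2% of all genes were called. The 3 KD females then left had striatal marker sums from 2477 to 3144 CPM and the 4 CD females from 239 to 325 CPM, so diet and striatal content cannot be told apart there. Nor can they in the females of series 1 alone, or with only E249 left out. Over both sexes it was 1 (H2-T23) in series 1 alone (5.55% of all genes). Between the sexes it was 1 (Oas2) with the edgeR likelihood ratio test (1.83% of all genes called), with DESeq2's Wald test (1.44%), and without E249 and E227 (3.24%). Leaving out 1 mouse at a time gave 0 to 1 in females (1, Ddx58, without E249), 0 to 2 between the sexes (2 without E227) and 0 elsewhere. The number of members with an unadjusted p under 0.05 in the interaction varied more. Series 1 alone gave 12 of 37 (7.92% of all genes), and series 2 alone 0 of 36 (0.944%). It was 7 of 37 without E249 and E227 (13.4%) and 5 of 36 without E213 (2.86%). The median log2 fold change in females was -0.14 in series 2 alone, and 0.09 to 0.39 when 1 mouse was left out; in males the latter range was -0.26 to 0.02. Of 81 results for single members, 53 had the other sign under at least 1 of the alternatives, 26 when 1 mouse was left out, and 8 were called under at least 1. The cause of these changes was not tested. No paired analysis was possible because the replicates are named by animal and share no number between groups. Genes with few reads, such as Zbp1, Oas1a and Oas2, limit what depth can show.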

Other observations

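MHC class II genes, which present peptides to CD4 T cells and are carried by myeloid and B cells, were low and varied more than the class I genes. Of 7 tested, 6 had a higher estimate in KD females and 5 in KD males, with median log2 fold changes of 0.89 and 0.74, and 0 were called in either sex. Cd74, the invariant chain, gave 1.07 in females (adjusted p = 0.42) and 0.98 in males (adjusted p = 1.0) by edgeR's quasi-likelihood test, and it was between 1.05 and 11.1 CPM, highest in E61. H2-Ab1 gave 1.36 and H2-Eb1 1.20 in females, and both were also highest in E61, at 5.75 and 6.72 CPM. The class II median difference was 1.88 in E61, 1.41 in E68, 1.33 in E249 and 1.25 in E64, and 0.52 in E213.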
